A study of Mus musculus with 12 samples.

Results

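Transcripts of 7 receptors of the LDL receptor family (Vldlr, Lrp1, Lrp2, Lrp4, Lrp5, Lrp6 and Lrp8) were measured in the liver of mice on 4 diets, out of 20422 genes in the whole table. A gene was a member when array probe sets were annotated to its symbol and to no other, and its level was the mean log2 intensity of those probe sets, which numbered 21 for Vldlr, 89 for Lrp1, 81 for Lrp2, 38 for Lrp4, 24 for Lrp5, 25 for Lrp6 and 21 for Lrp8. All 7 members were measured and none was lost to a filter. The receptor that gives the family its name is not analysed here. Livers came from male C57Bl/6J mice aged 20 weeks that had been fasted overnight, and whose mothers had started on the same regimens 3 weeks before mating. The 4 diets were TFA (chow with trans fat, the controls), MSG + TFA (monosodium glutamate at 0.75 g/L of drinking water), ASP + TFA (aspartame at 0.25 g/L) and ASP + MSG + TFA (both additives). Every group, the controls included, was fed the trans fat, so no comparison speaks to the fat itself. Each diet had 3 Affymetrix Mouse Gene 1.0 ST arrays, and each array carried the pooled RNA of 5 mice, so each mean has n = 3 pools, individual mice cannot be seen, and p-values measure the spread between pools. The comparison of each additive diet with TFA asked whether an additive shifts liver expression on top of trans fat, and all 3 comparisons share the same 3 TFA pools.

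Receptors of this family sit in the plasma membrane, bind cargo through cysteine-rich ligand-binding repeats and, for most of them, carry it into the cell through coated pits. In liver, Lrp1 takes up lipoprotein remnants and proteinase-inhibitor complexes. Vldlr binds triglyceride-rich lipoproteins, mainly in fat, muscle and heart, Lrp2 (megalin) is known from the kidney tubule, and Lrp8 is a receptor for reelin in neurons. Lrp5 and Lrp6 work differently: together with Frizzled receptors they receive Wnt signals, which in liver set the gene program of hepatocytes around the central vein. Lrp4 is the agrin receptor of muscle endplates and also binds Wnt inhibitors.

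The sequences upstream of Vldlr and Lrp1 are shown because these were the members with the widest differences between diets. RefSeq promoter entries (build GRCm38.p6) were found for 4 of the 7 members (Vldlr, Lrp1, Lrp2 and Lrp8), with more than 1 start for Vldlr and Lrp8. Each line gives the 250 bases before a start, 5′ to 3′ on the strand of the gene, with matches to the searched motifs in capitals.
Vldlr, upstream start (chr19:27216234-27216483, plus strand): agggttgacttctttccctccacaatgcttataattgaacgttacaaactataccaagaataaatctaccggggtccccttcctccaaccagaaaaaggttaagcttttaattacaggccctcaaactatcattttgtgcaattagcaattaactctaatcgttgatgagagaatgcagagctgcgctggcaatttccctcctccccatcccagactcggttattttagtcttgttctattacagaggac
Vldlr, downstream start (chr19:27216770-27217019, plus strand): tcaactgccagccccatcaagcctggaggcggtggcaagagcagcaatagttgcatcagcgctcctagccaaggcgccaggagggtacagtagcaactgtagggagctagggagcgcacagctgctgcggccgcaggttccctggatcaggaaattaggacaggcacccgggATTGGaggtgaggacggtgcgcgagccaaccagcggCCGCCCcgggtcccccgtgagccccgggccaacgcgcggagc
Lrp1 (chr10:127621149-127621398, minus strand): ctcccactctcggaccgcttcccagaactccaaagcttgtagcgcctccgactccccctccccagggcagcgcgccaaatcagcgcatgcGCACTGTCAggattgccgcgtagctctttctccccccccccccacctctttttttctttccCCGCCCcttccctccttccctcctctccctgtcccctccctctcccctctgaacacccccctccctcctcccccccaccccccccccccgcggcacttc
The 8 motifs searched on both strands were the GC box GGGCGG, the E box CACGTG, the hypoxia element core ACGTG (which lies inside the E box), the antioxidant element core TGACNNNGC, the peroxisome proliferator element (a direct repeat), the sterol element TCACNCCAC, the CCAAT box and the TATA box TATAAA. The window of the downstream Vldlr start, with 66.4% G and C, held a CCAAT box whose first base lay 78 bases before the start, and a GC box 42 bases before it. The other Vldlr window, with 41.6% G and C, held none of the 8. The Lrp1 window, with 67.2% G and C, held a GC box 99 bases and an antioxidant element core 160 bases before the start. Among 32851 windows of this length, 32.7% held a GC box, 33.8% a CCAAT box, 12.4% a TATA box and 10.2% the antioxidant core. The hypoxia core was in 16.6% of them, the E box in 6.02%, the sterol element in 1.05% and the peroxisome proliferator element in 0.0335%. These matches describe the letters only.

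Array medians lay between 6.91 and 6.96 on the log2 scale, and any 2 arrays correlated at 0.9531 to 0.9724 over probe sets, with no identical pair. The mean of 15 hepatocyte markers was 13.60 to 13.76 in every pool. Transcripts of other tissues were also present, and those of skeletal muscle differed between TFA and every additive diet. The mean of 14 skeletal muscle markers was 6.57 to 7.06 in the TFA pools, against 5.86 to 6.36 with MSG, 5.82 to 6.07 with ASP and 5.97 to 6.45 with both, so the TFA pools were the highest. In the ASP comparison 8 of these 14 muscle genes passed the adjusted test, all lower. The mean of 15 pancreatic acinar markers reached 8.61 in ASP + TFA pool 3, 7.74 in ASP + MSG + TFA pool 1 and 7.98 in ASP + MSG + TFA pool 2, and lay between 5.99 and 7.32 in the rest. It varied within diets, and 0 of the 15 had an unadjusted p under 0.05 in any comparison. The 8 adipocyte markers averaged 7.05 to 7.20 in TFA pools and 7.29 to 7.51 with both additives, and the 8 kidney tubule markers 5.84 to 6.13 in all pools. Among the adipocyte markers, Adipoq (5.16 to 5.58) and Plin1 (6.01 to 6.42) lay below the array medians in every pool. Cfd ranged from 8.02 to 10.26 and Cidec from 8.13 to 9.35. How far the adipocyte mean follows the content of fat cells was not tested. The 9 Kupffer cell markers, those of resident liver macrophages, averaged 8.53 to 8.58 in TFA pools, against 8.41 to 8.55 with MSG, 8.27 to 8.48 with ASP and 8.26 to 8.49 with both. The 6 cholangiocyte markers, those of bile duct cells, averaged 6.87 to 6.94 in TFA pools and 6.98 to 7.03 with ASP. Only 3 of the 6 were above TFA with ASP. At an unadjusted p under 0.05, 2 of the 6 were higher, beside 6.66% of all genes, and 0 were called. In whole tissue, fewer cells of a type and less RNA per cell cannot be told apart.

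No member passed the test in any comparison. Limma was fitted over all 12 arrays and all 20422 genes, and a gene was called at a Benjamini-Hochberg adjusted p under 0.05. With MSG 0 of the 7 members were called, against 0.0196% of all genes. With ASP the count was 0 against 0.284%, and with both additives 0 against 0.0392%. The interaction of ASP and MSG, which asks whether both together differ from the sum of each alone, gave 0 against 0.0686%, and the F test over the 4 diets 0 against 0.113%. The lowest adjusted p among members was 0.806 with MSG, 0.351 with ASP, 0.397 with both and 0.695 for the interaction. At an unadjusted p under 0.05, 1 of 7 members passed in each comparison with TFA: Lrp4 with MSG, Lrp1 with ASP and Vldlr with both additives, all of them above TFA. The share of all genes passing that threshold in either direction was 5.81%, 10.1% and 10.1%, and in the upward direction 2.77%, 6.66% and 5.68%. For the interaction 0 of 7 members passed it, against 7.39% of genes (3.27% upward), and for the F test 0 of 7, against 9.16%. By sign alone, 6 of 7 members were above TFA with MSG, 4 with ASP and 6 with both, against 51.3%, 57.3% and 52.2% of genes, and the interaction was above 0 for 4 members and 45.1% of genes. The median member difference was 0.0807 on the log2 scale with MSG, 0.0562 with ASP and 0.0554 with both, beside medians of 0.00361, 0.0220 and 0.00718 over all genes.

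**Figure D1:**
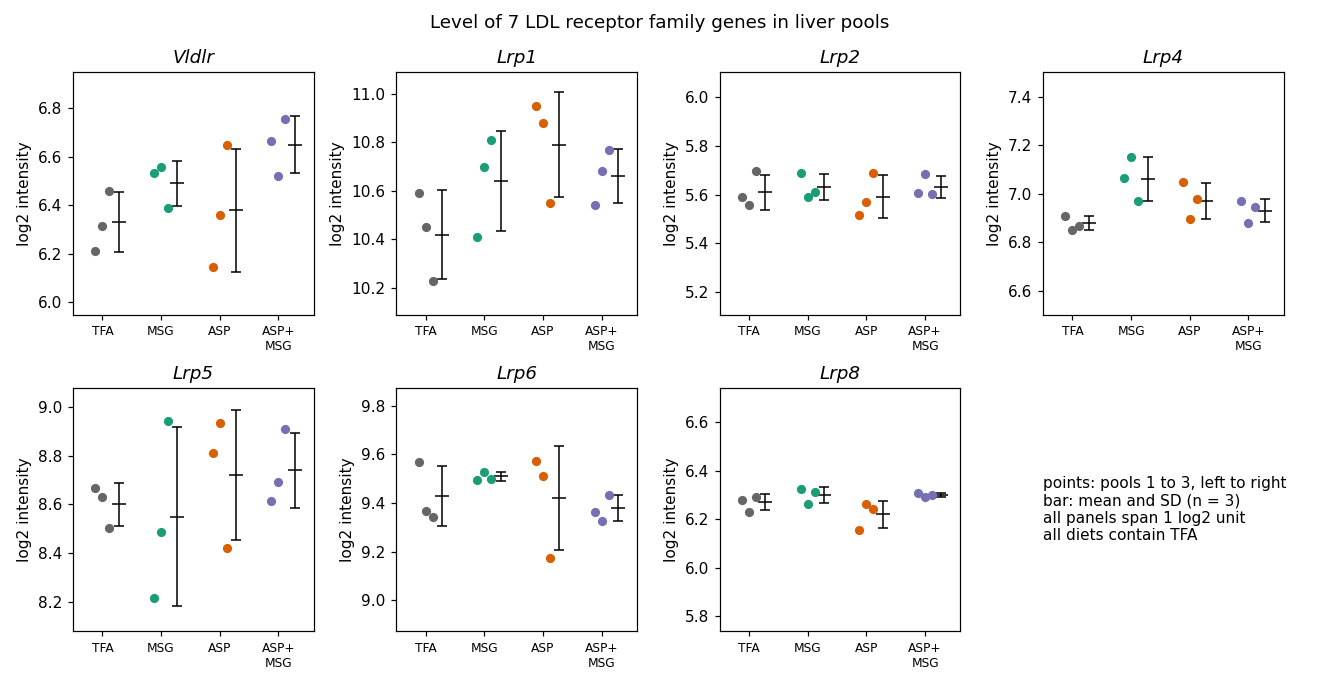
Level (log2 intensity) of each member in the 12 liver pools by diet, with points for pools 1 to 3 and a bar for the mean and SD (n = 3); every panel spans 1 log2 unit. Lrp5 and Lrp1 spread widely within diets, and Lrp2 and Lrp8 stayed within 0.18 and 0.17 log2 units over all pools.

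Lrp1, the endocytic receptor of hepatocytes for remnants and inhibitor-bound proteinases, had log2 levels of 10.59, 10.45 and 10.23 in the TFA pools. With ASP the levels were 10.95, 10.88 and 10.55, with MSG 10.41, 10.70 and 10.81, and with both 10.54, 10.68 and 10.77. Pools 1 and 2 of ASP + TFA were above every TFA pool, but pool 3 of that diet lay below TFA pool 1, so no additive diet separated from TFA. The ASP difference was 0.37 on the log2 scale (standard error 0.132, 95% interval 0.08 to 0.65, or 1.29-fold; limma adjusted p = 0.351, unadjusted p = 0.0146). Differences from TFA were 0.21 (standard error 0.132) with MSG and 0.24 (standard error 0.132) with both, and their intervals reached below 0. Leaving out 1 pool at a time moved the MSG value between 0.12 (without TFA pool 3) and 0.33 (without MSG + TFA pool 1, unadjusted p = 0.0319), and the value with both between 0.14 (without TFA pool 3) and 0.32 (without TFA pool 1, unadjusted p = 0.0441). The interaction was -0.34 (standard error 0.187, adjusted p = 0.744). Diet means increased in the order TFA, MSG + TFA, ASP + MSG + TFA and ASP + TFA, with gaps of 0.21, 0.03 and 0.13, of which the first exceeded the residual SD of 0.183. Without TFA pool 3, the lowest pool, the ASP difference was 0.27 with an unadjusted p of 0.0781. Array weights gave ASP + TFA pool 2 a weight of 3.33, against 0.459 for pool 1 and 0.355 for pool 3 of that diet. With these weights the ASP difference was 0.42 and the adjusted p 0.0455. At that setting 670 of all genes were called with ASP, against 58 in the main fit. The skeletal muscle markers moved the opposite way between TFA and ASP + TFA. With their mean as a covariate the ASP difference was -0.05, but that mean was highest in TFA pools and can hardly be told apart from diet. The mean of the 6 cholangiocyte markers was above TFA in all ASP + TFA pools, although only 3 of the 6 were above TFA. The part of bile duct cells in the Lrp1 level was not tested.

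The single probe sets of Lrp1 leaned one way. With ASP, 82 of 89 (92.1%) were above TFA, against 52.6% of all probe sets, with a median difference of 0.34 on the log2 scale and a range of -0.33 to 0.95. An unadjusted p under 0.05 with a change of at least 1.4-fold was met upward by 23 of the 89, against 4.40% of all probe sets, and downward by 0 (background 3.91%). The positive counts were 75 of 89 with MSG and 77 of 89 with both additives, against 50.8% and 49.8% of all probe sets. Past the same threshold, 9 probe sets went up and 1 went down in each (backgrounds 2.48% and 2.90% with MSG, 3.16% and 3.37% with both). Probe sets of 1 gene read the same RNA of the same pools, so these counts describe how evenly the gene's signal moved along its length and add no replicates. No Lrp1 probe set passed an adjusted p under 0.05, which 0.00943% of all probe sets did with ASP, 0.00141% with both additives and 0% with MSG. The lowest adjusted p was 0.131, for a probe set at 10.52, 10.02 and 10.25 in the TFA pools and at 11.25, 11.25 and 11.15 in the ASP + TFA pools. Of the 89 probe sets, 87 had a mean level at or above the array median.

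Vldlr, the receptor for triglyceride-rich lipoproteins, had log2 levels of 6.21, 6.32 and 6.46 with TFA and 6.67, 6.52 and 6.75 with both additives. All 3 pools with both additives were above all 3 TFA pools, an arrangement found in 10.0% of all genes. MSG + TFA pools read 6.53, 6.56 and 6.39, and ASP + TFA pools 6.14, 6.36 and 6.65, which covered the whole TFA range. The difference with both additives was 0.32 on the log2 scale (standard error 0.119, interval 0.06 to 0.57, or 1.25-fold; limma adjusted p = 0.397). With MSG it was 0.16 (standard error 0.119) and with ASP 0.06 (standard error 0.119), and the interaction was 0.10 (standard error 0.169). From TFA through ASP + TFA and MSG + TFA to ASP + MSG + TFA the diet means stepped by 0.06, 0.11 and 0.15, none of which exceeded the residual SD of 0.159. The difference with both additives rested on dim probe sets: it averaged 0.12 over the 4 probe sets at or above the array median and 0.37 over the 17 below it. Over those 4 brighter probe sets alone the unadjusted p was 0.455, and over all probe sets without TFA pool 1 it was 0.0745, against 0.0185 with every pool. With the median of the probe sets in place of the mean the difference was 0.52 (unadjusted p = 0.00647), and with array weights 0.31 (unadjusted p = 0.00467). Over the single probe sets, 16 of 21 were above TFA with both additives, 15 with MSG and 12 with ASP. The mean of the adipocyte markers was above TFA in all 3 pools with both additives, although Adipoq and Plin1 in that list were dim in every pool. The mean of the acinar markers was above TFA in 2 of those pools. With the adipocyte mean as a covariate the difference was 0.21 (unadjusted p = 0.134), and without the 3 acinar-rich pools, which leaves 1 pool with both additives and assumes that it varies like the others, it was 0.43 (unadjusted p = 0.00953).

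Lrp8, the reelin receptor of neurons, varied less between pools of a diet than all but 0.191% of genes, with a residual SD of 0.0369. Levels were 6.28, 6.23 and 6.29 with TFA, 6.33, 6.27 and 6.31 with MSG, 6.15, 6.26 and 6.24 with ASP and 6.31, 6.29 and 6.30 with both. All pools with both additives lay narrowly above the TFA pools (10.0% of genes, as for Vldlr), by a mean of 0.03 on the log2 scale (standard error 0.0710, interval -0.12 to 0.19). Only 6 of its 21 probe sets reached the array median. A probe set of Lrp8 with levels of 10.17, 10.61 and 10.73 in TFA pools read 9.70, 9.92 and 9.77 with ASP (difference -0.71, adjusted p = 0.262), whereas the gene's mean differed by -0.05.

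Lrp2, megalin, had levels of 5.59, 5.56 and 5.69 with TFA, 5.69, 5.59 and 5.61 with MSG, 5.52, 5.57 and 5.69 with ASP, and 5.61, 5.68 and 5.60 with both. All 4 diets overlapped, the widest difference from TFA was -0.02 with ASP (standard error 0.0790, interval -0.19 to 0.15), and 69 of its 81 probe sets were below the array median. Its probe sets did not move as a unit. With ASP, 41 of 81 were above TFA with a median of 0.00, and differences ran from -1.46 to 1.23. At an unadjusted p under 0.05 and 1.4-fold, MSG gave 0 probe sets above and 5 below TFA, ASP gave 3 above and 6 below, and both additives gave 2 above and 6 below. The background shares are those given for Lrp1. The probe set with the lowest p read 9.86, 9.35 and 9.54 with TFA and 8.54, 7.63 and 8.23 with ASP, with no overlap, a difference of -1.45 and an adjusted p of 0.128. The same probe set stood at 8.83, 8.61 and 8.47 with MSG and 8.40, 8.96 and 9.04 with both additives, all below TFA. It was picked for its low p, and the comparisons share the TFA pools, so these values are no separate result. The share of all probe sets without overlap was not counted.

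Lrp4, the agrin receptor, differed most from TFA with MSG. Its levels were 6.91, 6.85 and 6.87 with TFA and 7.07, 7.15 and 6.97 with MSG, so the MSG pools lay above the TFA pools, as they did for 6.45% of genes. ASP + TFA pools read 7.05, 6.90 and 6.98 and pools with both additives 6.97, 6.88 and 6.94. The MSG difference was 0.19 on the log2 scale (standard error 0.0785, interval 0.02 to 0.36, or 1.14-fold; limma adjusted p = 0.806, unadjusted p = 0.0319). With ASP it was 0.10 and with both 0.06 (standard error 0.0785 for each), and the interaction was -0.23 (standard error 0.111, adjusted p = 0.695). The order of the means was TFA, ASP + MSG + TFA, ASP + TFA and MSG + TFA, with gaps of 0.06, 0.04 and 0.09, and the last of these exceeded the residual SD of 0.0654. Its bright and dim probe sets gave like values with MSG, 0.18 over 18 and 0.19 over 20. Plain analysis of variance gave Lrp4 the only unadjusted p under 0.05 among the members in the 4-diet test, 0.0422, and an adjusted p of 0.603 (1678 of all genes met the unadjusted threshold and 0 the adjusted one). Muscle markers were lower with MSG, whereas Lrp4 was higher. With the mean of the muscle markers as a covariate the MSG difference of Lrp4 was 0.10 (unadjusted p = 0.458). That mean was highest in TFA pools, so the fit can hardly tell it apart from diet. Without MSG + TFA pool 2 the difference was 0.14 (unadjusted p = 0.129).

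Lrp5, a co-receptor for Wnt ligands, was the most variable member, with a residual SD of 0.244 that exceeded that of 93.8% of genes. Levels were 8.67, 8.63 and 8.50 with TFA, and the MSG pools straddled them at 8.21, 8.49 and 8.94. ASP + TFA pools read 8.81, 8.93 and 8.42 and pools with both additives 8.61, 8.69 and 8.91. Differences from TFA were -0.05 with MSG, 0.12 with ASP and 0.14 with both (standard error 0.166 each), with intervals that all spanned 0. All 24 probe sets of Lrp5 had a mean level at or above the array median.

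Lrp6, the paired Wnt co-receptor, read 9.57, 9.37 and 9.34 with TFA, 9.49, 9.53 and 9.50 with MSG, 9.57, 9.51 and 9.17 with ASP, and 9.36, 9.33 and 9.43 with both. The 3 MSG pools agreed within an SD of 0.0181, and ASP + TFA pool 3 was the lowest of all 12. Differences from TFA were 0.08, -0.01 and -0.05 (standard error 0.104 each), and their intervals together ran from -0.27 to 0.30. Neither Lrp5 nor Lrp6 had an order of diet means with a gap above its residual SD.

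**Figure D2:**
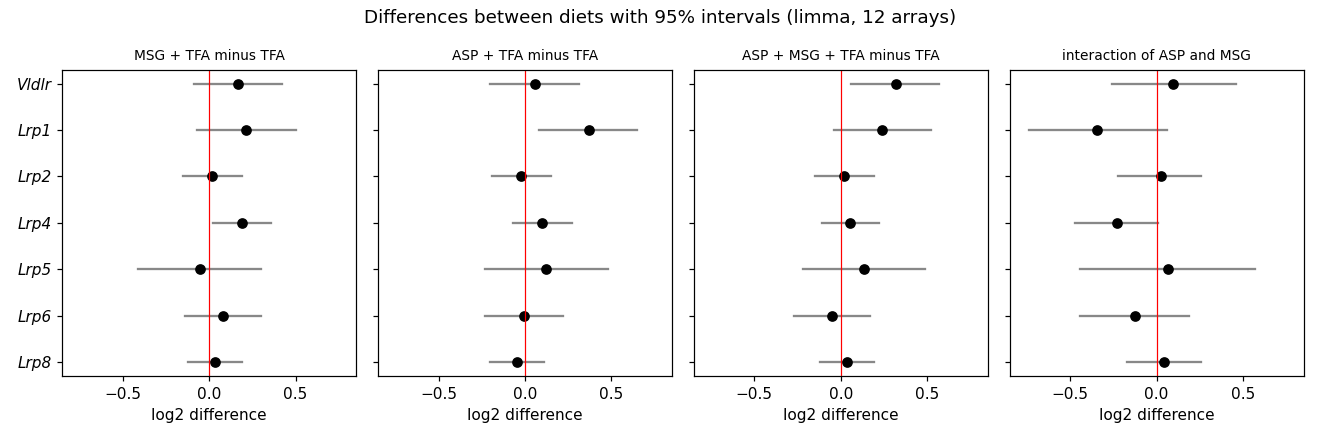
Log2 difference between diets for each member, with the limma 95% interval as a line; the panels are the 3 comparisons with TFA and the interaction. The intervals of Lrp4 with MSG, Lrp1 with ASP and Vldlr with both additives lie above 0, and the rest of the intervals in the plot cross it.

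**Figure D3:**
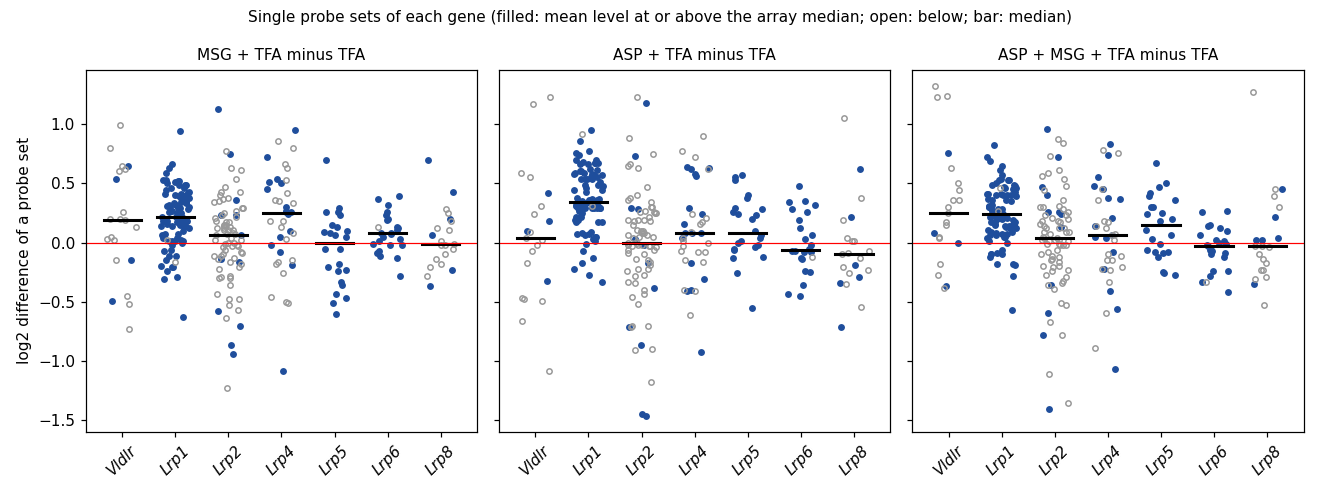
Log2 difference from TFA of every probe set of each member, filled where its mean level was at or above the array median and open where below, with the median as a bar. Probe sets of Lrp1 sit mostly above 0 (82 of 89 with ASP), whereas those of Lrp2 scatter from -1.46 to 1.23.

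Ligands carried by these receptors were read from lists of known partners. Over all genes, 2.77% were higher and 3.05% lower with MSG at an unadjusted p under 0.05. The shares were 6.66% and 3.47% with ASP, and 5.68% and 4.38% with both. For the interaction 7.39% of all genes met that threshold in either direction. Among 10 lipoprotein and lipase ligands, 0 were called in any comparison, and at an unadjusted p under 0.05 there was 1 lower with MSG and 1 higher and 1 lower in each of the other comparisons with TFA, and 1 lower for the interaction. Lpl, lipoprotein lipase, which hydrolyses triglyceride and bridges lipoproteins to Lrp1 and Vldlr, came nearest. Its log2 levels were 7.16, 7.42 and 7.19 with TFA, 6.95, 7.08 and 6.76 with MSG, 6.85, 7.01 and 6.46 with ASP, and 6.52, 6.54 and 6.45 with both. Every pool of each additive diet lay below every TFA pool, as for 6.75%, 4.92% and 7.90% of all genes with MSG, ASP and both. The differences were -0.33 with MSG (adjusted p = 0.786), -0.48 with ASP (adjusted p = 0.191) and -0.76 with both additives (standard error 0.130, interval -1.03 to -0.48, 0.592-fold; limma adjusted p = 0.0780), the 11th lowest p of all genes in that comparison. Lpl is expressed in muscle and in adipocytes. With the skeletal muscle mean as a covariate its difference with both additives was -0.71 (unadjusted p = 0.00562, adjusted p = 0.212), and with the adipocyte mean -0.69 (unadjusted p = 0.000594, adjusted p = 0.263). The muscle mean and diet can hardly be told apart. Lipg, endothelial lipase, read 8.43, 8.29 and 8.40 with TFA and 8.73, 8.71 and 9.13 with both additives, a difference of 0.48 (adjusted p = 0.309). Apoc1, which hinders remnant uptake by Lrp1, differed by 0.25 with ASP (adjusted p = 0.336) and by 0.16 with MSG (adjusted p = 0.890), and its interaction was -0.38 (unadjusted p = 0.00827, adjusted p = 0.444). The median of the 10 was 0.0646 with MSG, 0.0148 with ASP and 0.0546 with both.

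Of 14 measured proteinase, inhibitor and matrix ligands, also 0 were called, and against TFA 2 had an unadjusted p under 0.05, both higher with both additives. In that comparison 5.68% of all genes were higher at this threshold. For the interaction 1 of the 14 met that threshold, beside 7.39% of all genes in either direction. It was Plau, urokinase, at 0.32 (limma unadjusted p = 0.0384, adjusted p = 0.643). Plat and Plaur, the tissue plasminogen activator and the urokinase receptor, differed by 0.20 each with both additives (adjusted p = 0.484 and 0.423). Mmp9 was at -0.14 with MSG and -0.16 with ASP, Mmp2 at 0.09 with MSG, and the growth factor Pdgfb at 0.16 with ASP. None of 13 measured chaperones, adaptors and turnover factors passed (unadjusted, 1 higher with ASP and 1 lower with both, beside 6.66% and 4.38% of all genes). Gulp1, an adaptor that binds the tail of Lrp1, read 5.91, 6.21 and 6.09 with TFA and 5.81, 5.52 and 5.39 with both, a difference of -0.50 (standard error 0.132, adjusted p = 0.244), and -0.26 with MSG. Mylip, the ubiquitin ligase that sends receptors of this family for degradation, differed by 0.21 with ASP (adjusted p = 0.489). The kinase Fyn was at 0.13 with ASP, and Amn, a partner of the cubilin receptor, at -0.15 with MSG and -0.14 with both. Of 7 further listed genes related to the family, 0 passed the adjusted test. Unadjusted, the interaction of Lrp12 alone was under 0.05 (0.32, limma unadjusted p = 0.0471), a threshold met by 7.39% of all genes. Lrp12 was at -0.19 with MSG and -0.15 with ASP, Lrp1b at 0.07 with MSG, Lrp11 at 0.26 with ASP, Lrp3 at -0.11 and Ldlrad3 at -0.16 with both.

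The Wnt side of the family was equally without calls. Of 13 Frizzled and related receptors 0 passed (unadjusted, 1 higher and 2 lower with both additives, beside 5.68% and 4.38% of all genes). Their medians were -0.0338 with MSG, -0.0425 with ASP and -0.107 with both additives. Fzd8 read 8.49, 8.49 and 8.36 with TFA and 7.90, 7.88 and 8.10 with both, a difference of -0.49 (standard error 0.114, adjusted p = 0.207) that rests on 1 probe set. Fzd6 differed by 0.26 with both additives (adjusted p = 0.400), Fzd7 by -0.27 and Fzd1 by 0.15 with MSG, and Fzd1 by -0.19 and Fzd9 by 0.21 with ASP. Of 13 listed secreted and membrane inhibitors of Wnt signals, not all of which act on Lrp5 or Lrp6, 0 passed. Against TFA 2 of them were higher with ASP at an unadjusted p under 0.05, beside 6.66% of all genes. Kremen1, which removes Lrp6 from the surface together with Dickkopf proteins, read 7.24, 7.13 and 7.14 with TFA and 7.50, 7.43 and 7.33 with ASP, a difference of 0.25 (standard error 0.0756, adjusted p = 0.257), and 0.14 with MSG. Its interaction was -0.27 (unadjusted p = 0.0267, adjusted p = 0.609). Notum, the Wnt deacylase, differed by 0.23 with ASP (adjusted p = 0.421), Dkk3 by -0.10 with MSG, and Dkk4 and Sostdc1 by 0.22 and 0.27 with both. Of 14 Wnt ligands and R-spondins, 0 passed (unadjusted, 1 higher with ASP and 1 lower with both, beside 6.66% and 4.38% of all genes). Wnt9b, a ligand of endothelial cells around the central vein, differed by 0.25 with ASP (adjusted p = 0.460) and Wnt10a by 0.21. Wnt11 was at -0.19 and Wnt2b at 0.19 with both additives, and Wnt2 at -0.19 and Wnt5b at -0.16 with MSG.

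Target and pericentral genes, which report on Wnt activity around the central vein, gave 0 calls among 14, and at an unadjusted p under 0.05 against TFA 2 were lower with MSG, 1 with ASP and 2 with both, beside 3.05%, 3.47% and 4.38% of all genes. For the interaction 1 was above 0 and 2 below at that threshold, which 7.39% of all genes met in either direction. Nkd1 was at 0.38 (limma unadjusted p = 0.0142, adjusted p = 0.524) and Rnase4 at -0.33 (unadjusted p = 0.0436, adjusted p = 0.659). Slc1a2, a pericentral glutamate transporter, was at -0.36 (unadjusted p = 0.0275, adjusted p = 0.612). The median of the 14 genes was -0.107 with MSG, 0.0208 with ASP and -0.0710 with both additives. With MSG 4 of 14 were above TFA, against 51.3% of all genes. Rnase4 read 13.07, 13.11 and 12.89 with TFA and 12.53, 12.63 and 12.61 with both additives (difference -0.43, standard error 0.104, adjusted p = 0.214). Oat, ornithine aminotransferase, was at -0.25 in the same comparison (adjusted p = 0.472). Rhbg, an ammonium transporter of pericentral hepatocytes, differed by -0.46 with MSG (adjusted p = 0.779), its pools overlapping with TFA. Nkd1, a feedback inhibitor of Wnt signals, was at -0.20 with MSG and -0.28 with ASP (adjusted p = 0.308), and Lect2 at -0.17 with ASP. Of 9 reelin, agrin and partner genes 0 passed, adjusted or unadjusted: Reln was at 0.16 and Crkl at -0.09 with MSG, Crkl at -0.16 and Rapsn, the endplate scaffold, at 0.24 with ASP, and Rapsn at 0.22 and Dab1, the reelin adaptor, at 0.18 with both.

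**Figure D4:**
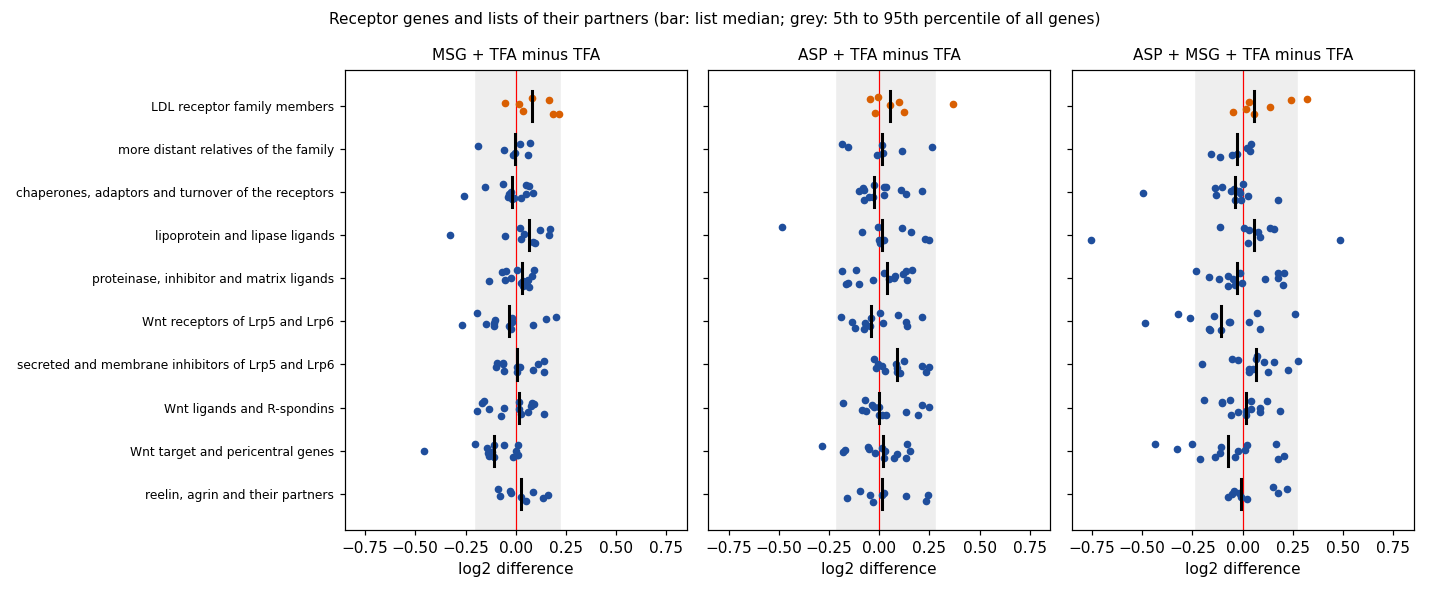
Log2 difference from TFA of the 7 members (top) and of the genes of each partner list, with the list median as a bar and the 5th to 95th percentile of all genes in grey (for example -0.21 to 0.28 with ASP). Lpl, at -0.76 with both additives, is the point farthest from 0.

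Genes whose levels followed each member most closely were ranked by Pearson r over the 12 pools, among 8293 genes at most, all of at least median level, as a description of pools that share diet, dissection and array. For Vldlr they were Tmem91 (r = 0.927), Lce1b (0.888) and Txnip (0.884), the thioredoxin-interacting protein, whose means were 10.49 with TFA, 11.00 with MSG, 10.56 with ASP and 11.09 with both. For Lrp1 they were Mylk, a myosin light chain kinase (0.934), Hp1bp3 (0.917) and Kpna6, an importin (0.917). For Lrp4 they were Gsr, glutathione reductase (0.891), Bag4 (0.883) and Setd3 (0.876). Gsr had means of 10.18 with TFA and 10.33 with MSG. Lrp5 ran with Gldc, the glycine decarboxylase (0.916), Pnkd (0.906) and Zfp207 (0.896), and Lrp6 with Enpp5 (0.949), Appl2 (0.945) and Abi1 (0.942). The dimmer Lrp2 and Lrp8 ran with Sly (0.872), Pramel5 (0.863) and Tigd3 (0.840), and with Obox2 (0.903), Cnnm3 (0.891) and Eef1d (0.864). The top genes of 1 member were not those of another.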

How the data were processed

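Liver RNA pools of 4 diets were hybridised to 12 arrays, and the authors deposited linear intensity values per probe set after GCRMA background adjustment and quantile normalization in Partek (per the labels and the study's methods), with the genome build not given in the sources used here. Intensities, 14.8 to 68604 over the table, were log2-transformed without a pseudocount. Of 241576 probe sets, 212138 carried 1 symbol, 4672 several and 24766 none; those with 1 symbol were averaged into 20422 genes. R 4.3.3 with limma 3.58.1 fitted 1 model over the 12 arrays, with Benjamini-Hochberg adjustment within each comparison, and was tested on simulated data. Members and lists were chosen with earlier results of these data known. Named genes were all members, the 2 genes of lowest p per list and comparison, and the 3 genes most correlated with each member; the single probe sets described have the lowest p of their gene, and Plau and Slc1a2 were named after their values were seen. Figures used matplotlib 3.10.9. The number of arrays limits precision. Alternatives covered probe set summary, brightness, centring, variance prior, array weights, the 6 arrays compared alone, a replicate block, omission of each array, and, chosen after seeing the data, omission of 3 acinar-rich pools and covariates for muscle and adipocyte markers (Lpl included). Protein sequences were not used here.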

Additional observations from a re-analysis of the deposited data

How the results depend on the processing

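Of 763 alternative values for the members, 51 changed sign and 1 passed the threshold. The other 711 kept their side of the threshold and, where the test has a direction, that direction. The 1 that passed was Lrp1 with ASP under array weights, at 0.42 (adjusted p = 0.0455). That makes 1 member called in place of 0, at a setting that called 670 of all genes in place of 58. The causes of the changes were not tested. The 711 do not measure how firm the directions are, because many of the 763 values could not change sign. The tests over all diets, which are among them, have no direction. The variance prior, the replicate block and the fit of the 6 arrays compared alone leave the difference as it was. So does omitting a pool outside the comparison. Lrp1 with ASP stayed at 0.37 in each of these.

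The median of probe sets in place of the mean gave Lrp5 0.0068 and Lrp8 -0.13 with MSG, Lrp2 0.0048 and Lrp6 0.04 with ASP, Lrp6 0.0049 and Lrp8 -0.02 with both additives, and Lrp2 -0.07 for the interaction. Brighter probe sets alone gave Lrp2 -0.05 with MSG and Vldlr -0.12 for the interaction. Array weights gave Lrp6 0.08 with ASP and Lrp5 -0.11 for the interaction. Without the 3 acinar-rich pools, ASP values were -0.08 for Vldlr and 0.12 for Lrp6, and values with both additives -0.01 for Lrp2 and 0.0086 for Lrp6. With the mean of skeletal muscle markers in the model, Lrp1 and Lrp6 were both -0.16 with MSG; Lrp1 was -0.05, Lrp2 0.12 and Lrp5 -0.39 with ASP; Lrp1 was -0.08, Lrp4 -0.01 and Lrp5 -0.25 with both; and the interaction was -0.03 for Vldlr, 0.14 for Lrp1, -0.14 for Lrp2 and 0.19 for Lrp6. That mean is highest in TFA pools, so it and diet can hardly be told apart. With the adipocyte mean, values with both additives were -0.03 for Lrp2 and 0.05 for Lrp6, and interactions -0.04 for Vldlr, -0.04 for Lrp2 and 0.0042 for Lrp6.

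Leaving out 1 pool at a time, Lrp2 ranged from -0.01 to 0.06 with MSG, -0.07 to 0.02 with ASP, -0.01 to 0.06 with both and -0.02 to 0.07 for the interaction; Lrp5 from -0.25 to 0.11 with MSG and -0.10 to 0.27 for the interaction; Lrp6 from -0.08 to 0.12 with ASP and -0.09 to 0.02 with both; and Vldlr from -0.08 to 0.18 with ASP and -0.02 to 0.23 for the interaction. Lrp1 with ASP stayed between 0.27 and 0.49, Vldlr with both between 0.26 and 0.38, and Lrp4 with MSG between 0.14 and 0.23.

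Same-numbered pools of different diets deviated together at r of -0.342 to 0.354 (median 0.0288, 4 of 18 pairs over 0.1). Differently numbered pools gave -0.305 to 0.281 (median 0.000721, 10 of 36 pairs over 0.1), so the numbers showed no clear pairing. The labels do not say whether pools share litters or batches, and so few pools per diet cannot decide it. With the replicate block the Lrp1 difference with ASP stayed 0.37 (adjusted p = 0.351) and Vldlr with both 0.32 (adjusted p = 0.348), and no member's call changed. Counts over all genes moved: 4 with MSG (1 to 14 over alternatives), 58 with ASP (2 to 670), 8 with both (1 to 76), 14 for the interaction (0 to 142) and 23 for diet (0 to 295), with the highest count always under array weights.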
